A study of Mus musculus with 4 samples.

Results

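Actins and alpha-actinins are the filament and the cross-linker at the core of the sarcomere, and 9 genes of these families were followed here, 5 actins (Acta1, Actc1, Acta2, Actb and Actg1) and 4 alpha-actinins (Actn1, Actn2, Actn3 and Actn4). The members were taken by gene symbol from the 23482 genes of the deposited table. All 9 were listed and all 9 passed the filter on low values, which kept the 10015 genes that reached 1 RPKM in 2 or more libraries. RPKM is reads per kilobase of gene model, scaled to the reads of the library. Each of the 9 reached 1 RPKM in both groups, so none entered the test through one group alone.

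The tissue was quadriceps muscle, taken at 6 to 8 weeks of age from mice of the strain FVB/N, with 2 libraries from non-transgenic control muscle and 2 from muscle overexpressing Thbs1 as a transgene, which encodes the secreted glycoprotein thrombospondin-1. The comparison asks which transcripts of skeletal muscle differ with Thbs1 overexpression. The labels used here name neither the promoter that drives the transgene nor the founder line, and they do not say whether a library is 1 animal or a pool. Since nothing says that the libraries of a group are separate animals, the p-values rest on a spread between libraries that may be only technical.

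In muscle, actin polymerises into the thin filaments on which myosin pulls, and alpha-actinin cross-links the barbed ends of thin filaments from neighbouring sarcomeres at the Z-disc. Acta1 encodes the skeletal muscle alpha-actin of adult fibres. Actc1 encodes the cardiac alpha-actin, which is also made in developing skeletal muscle and is normally low in adult fibres. Acta2 is the alpha-actin of smooth muscle, and Actb and Actg1 encode the cytoplasmic actins found in nearly all cells. Actn2 is made in all muscle fibres and in the heart, Actn3 in fast fibres only, and Actn1 and Actn4 serve adhesions and stress fibres outside the sarcomere.

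The libraries held 18815221 to 20053685 reads in genes. Thbs1 itself had 8.61 and 12.2 RPKM in the controls against 12900 and 15411 RPKM in the transgenics, where it took 12.0% and 14.4% of all reads in genes. Reads that go to the transgene lower the RPKM of every other gene in the same library, and values with Thbs1 left out of the library sizes are given beside each member. All 7 genes of the list of skeletal muscle defining genes were present, with the muscle creatine kinase Ckm between 4345 and 7662 RPKM in the 4 libraries. Transgenic library 2 stood apart in slow fibre genes, whose summed level was 105 RPKM against 536 to 874 RPKM in the other libraries. In bulk muscle, fewer cells of a type and less RNA per cell cannot be told apart.

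The 5 actins have closely related coding sequences, which bears on how far their reads can be told apart. The stretch shown here is the 60-base window, starting at a codon, with the most positions at which the 5 actins differ (24). It is taken from the longest coding GENCODE M21 transcript of each gene and begins at base 10 of the coding sequence for Acta1, Actc1 and Acta2 and at base 4 for Actb and Actg1. Capitals mark bases that differ from Acta1.
Acta1: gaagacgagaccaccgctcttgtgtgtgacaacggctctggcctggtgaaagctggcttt
Actc1: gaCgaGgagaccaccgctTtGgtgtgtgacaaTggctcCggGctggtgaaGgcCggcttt
Acta2: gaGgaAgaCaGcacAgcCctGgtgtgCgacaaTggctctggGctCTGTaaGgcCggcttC
Actb: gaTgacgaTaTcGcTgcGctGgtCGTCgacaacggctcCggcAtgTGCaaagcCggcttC
Actg1: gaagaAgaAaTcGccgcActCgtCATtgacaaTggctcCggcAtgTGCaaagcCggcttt
In this window Actc1 differed from Acta1 at 9 bases and Actb at 18.

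Over the whole coding sequence, Acta1 and Actc1 were identical at 86.2% of 1134 aligned bases, and the longest identical run was 29 bases. No window of 50 bases was identical between them, and 4.06% of windows were within 2 mismatches. Between Acta1 and Actb the identity was 85.3%, with a longest identical run of 77 bases and 8.66% of windows within 2 mismatches. Actb and Actg1 were the closest pair, at 88.7% identity. Actn2 and Actn3 were identical at 75.2% of aligned bases.

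Matches to the transcripts of other genes were counted over words of 50 bases. No word of Actc1 occurred in a transcript of another gene, and 2.22% of the words of Acta1 did. For Actg1, 56.7% of the words occurred elsewhere, mostly in transcripts named Gm12715, Gm8399 and Actg-ps1, and 51.1% of its words of 100 bases did. For Actb the share was 14.2% and for Actn1 10.2%. The counts of Actg1 and Actb are therefore uncertain. Read length and the treatment of reads with several matches are not given in the sources used here. Both strands were searched, and the words of Actn1 were shared mostly with Gm47766 and Gm47767. Exons of Actg1 overlap Gm23419 and Mir6935 on the same strand. On the opposite strand, exons of Actn1 overlap Gm47766 and Gm47767 and exons of Actn4 overlap Capn12. Library strandedness is also not given, which leaves the count of Actn1 uncertain as well.

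The proximal promoters of Acta1 and Actc1 are shown because these paralogs encode the sarcomeric actins, of which Actc1 passed the test and Acta1 did not. Each is 250 bases before to 50 after the RefSeq start on GRCm38.p6, minus strand, at chr8:123894726-123895025 for Acta1 and chr2:114052826-114053125 for Actc1. Capitals mark an exact match to the CArG box (CC, a run of A or T, GG), the motif bound by serum response factor.
Acta1: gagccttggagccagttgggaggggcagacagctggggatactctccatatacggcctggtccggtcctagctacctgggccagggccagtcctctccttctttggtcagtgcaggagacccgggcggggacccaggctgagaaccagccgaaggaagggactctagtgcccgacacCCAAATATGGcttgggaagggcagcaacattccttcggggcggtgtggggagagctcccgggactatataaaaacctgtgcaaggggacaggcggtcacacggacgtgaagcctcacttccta
Actc1: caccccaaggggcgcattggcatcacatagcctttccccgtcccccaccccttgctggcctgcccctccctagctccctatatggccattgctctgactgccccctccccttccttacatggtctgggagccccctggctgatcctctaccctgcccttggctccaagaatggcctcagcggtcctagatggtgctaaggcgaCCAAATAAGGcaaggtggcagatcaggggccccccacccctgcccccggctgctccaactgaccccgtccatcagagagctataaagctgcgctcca
The box began 73 bases before the start in Acta1 and 47 bases before it in Actc1. Both strands were searched. Of 32851 promoters of this length, 1.63% held an exact CArG box. Among the members, 7 had a promoter entry, and Actg1 was the only other one with an exact match, CCATATATGG at 90 bases before its start. Boxes with 1 mismatch in the run of A or T were in 8.5% of all promoters. Acta1 had 2 of these, Actc1 3 and Acta2 2, and the other members with an entry had 0. The motif CATTCC, which TEAD factors bind, was in 14.7% of all promoters and in those of Acta1, Acta2 and Actn4. Actb and Actn3 had no entry. A match is a description of letters and not of binding.

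Acta1 was the most abundant member in every library. It stood at 9027 and 8222 RPKM in the controls and at 6543 and 7118 RPKM in the transgenics, at rank 3 and rank 2 among all genes by group mean. The control order by mean RPKM was Acta1, Actn3, Actb, Actg1, Actc1, Actn2, Acta2, Actn4 and Actn1. In the transgenics Actb stood above Actn3, and Actn2 above Actc1. Neighbours in these orders did not overlap over their 2 libraries, except Actn3 and Actg1 in the transgenics, whose places do not differ beyond their spread.

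These levels rest on the authors' gene lengths, and the length of Acta1 was unlike the others. Recovered reads gave a model length of 5326 bases for Acta1, which is longer than its locus of 2983 bases (chromosome 8, 123891769 to 123894751, minus strand, GRCm38) and 3.68 times its transcript of 1446 bases. The other 8 members had model lengths of 1.55 to 1.94 times the transcript. Over 1930 coding genes with a single GENCODE transcript the median model length was 1.49 times the exon length and equal to the sum of exon and coding length, and over 581 non-coding genes it equalled the exon length. Levels of Acta1 against other genes are thus understated in RPKM. Changes between groups within a gene do not depend on its length, apart from the pseudocount.

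**Figure D1:**
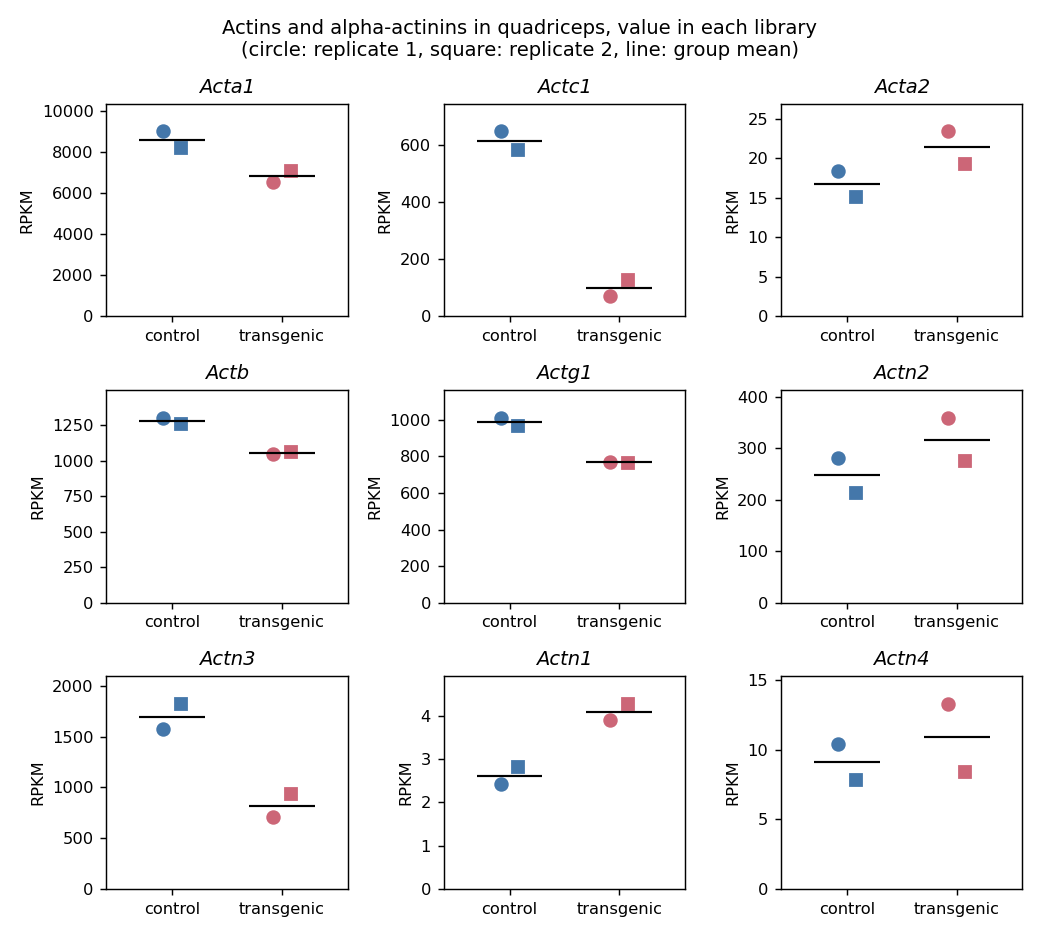
RPKM of the 9 members (y axis, from 0, scaled for each panel) in the control and transgenic libraries (x axis), with circles for replicate 1, squares for replicate 2 and lines for group means. The groups do not overlap for Acta1, Actc1, Acta2, Actb, Actg1, Actn3 and Actn1, as for 58.1% of tested genes. They overlap for Actn2 and Actn4. Actc1 and Actn3 have the largest fold differences.

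Actc1, the cardiac alpha-actin, fell in transgenic muscle. It measured 649 and 585 RPKM in the controls against 71.4 and 129 RPKM in the transgenics, which is 31802 and 27829 reads against 3616 and 6459. Both transgenic libraries lay far below both controls, and the group means were 617 ± 45.3 and 100 ± 40.8 RPKM (SD, n = 2), a 6.16-fold difference. The log2 fold change on the log2(RPKM + 1) scale was -2.67 (SE 0.31, 95% interval -3.45 to -1.89, limma adjusted p = 0.0174). Actc1 was the only one of the 9 members past the threshold of 0.05, where 1.22% of all tested genes were called lower, 6.25% higher and 7.47% in either direction. In the authors' deposited table Actc1 had a control-to-transgenic ratio of 6.88 and an adjusted p of 3.70e-26. Actc1 and Actn3 were the 2 members at an adjusted p under 0.1 in the authors' deposited table, where 9.2% of 17769 genes were, 3.64% being lower in the transgenics. The call was lost without control library 1 or 2 (limma adjusted p = 0.0561 and 0.0899) and with no filter on low values (0.0619), while the log2 fold change was -2.25 to -3.09 over the libraries left out. With Thbs1 left out of the library sizes it was -2.47 (limma adjusted p = 0.0164).

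Acta1, the adult skeletal alpha-actin, was lower in both transgenic libraries but did not pass the test. Its group means were 8624 ± 569 and 6830 ± 407 RPKM (SD, n = 2), so the transgenic mean was 79.2% of the control mean. The log2 fold change was -0.34 (95% interval -0.87 to 0.20, limma adjusted p = 0.363). With Thbs1 left out of the library sizes it was -0.13 (limma adjusted p = 0.708).

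The cytoplasmic actins had values close to those of Acta1. Actb had 1304 and 1262 RPKM in the controls against 1051 and 1061 in the transgenics. Its log2 fold change was -0.28 (95% interval -0.73 to 0.17, limma adjusted p = 0.371), or -0.08 with Thbs1 left out of the library sizes. Actg1 stood at 1012 and 968 RPKM in the controls and at 770 and 766 in the transgenics. Its log2 fold change was -0.37 (95% interval -0.81 to 0.08, limma adjusted p = 0.249), or -0.16 without Thbs1. The RPKM ratio of Acta1 to Actb was 6.92 and 6.51 in the controls against 6.23 and 6.71 in the transgenics, and the groups overlapped.

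Acta2, the smooth muscle alpha-actin, was low in whole muscle. It measured 18.4 and 15.1 RPKM in the controls against 23.4 and 19.3 in the transgenics. Both transgenic libraries were higher, and the log2 fold change of 0.34 (95% interval -0.13 to 0.80) did not pass the test (limma adjusted p = 0.3). It was 0.53 with Thbs1 left out of the library sizes (limma adjusted p = 0.0994). Actg2, the enteric smooth muscle actin and no member, was between 0.412 and 0.59 RPKM in the 4 libraries and was not tested. Of 13 tested smooth muscle and pericyte markers 0 were called in either direction, with 4 positive and 9 negative log2 fold changes. The smooth muscle myosin Myh11 had 1.07 and 1.09 RPKM in the controls against 1.17 and 0.611 in the transgenics.

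Groups that do not overlap are common in these data, at 58.1% of tested genes, 19.7% being lower and 38.4% higher in the transgenics. The groups did not overlap for Acta1, Actc1, Actb, Actg1 and Actn3, which were lower, and for Acta2 and Actn1, which were higher. Over both directions this is 7 of the 9 members. By direction 5 were lower and 2 higher, and since the members were chosen with earlier results known, these counts are a description.

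The make-up of the actin pool was compared as each gene's share of the summed RPKM of the 5 actins in the same library, which does not depend on scaling between libraries. The sum was 12011 and 11053 RPKM in the controls and 8458 and 9093 RPKM in the transgenics. Actc1 held 5.41% and 5.30% in the controls against 0.844% and 1.42% in the transgenics. Its mean share went from 5.35% ± 0.0784 to 1.13% ± 0.407 (SD, n = 2), a difference of -4.22 percentage points. Acta1 held 75.2% and 74.4% in the controls against 77.4% and 78.3% in the transgenics, a difference of 3.04 points. Shares sum to 100% in a library, so a lower share of one actin raises the others, and the RPKM of Acta1 itself was lower in both transgenic libraries. The RPKM ratio of Acta1 to Actc1 was 13.9 and 14.0 in the controls against 91.7 and 55.2 in the transgenics.

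Among the other actins the shares differed less. Actb held 10.9% and 11.4% in the controls against 12.4% and 11.7% in the transgenics. Actg1 held 8.43% to 9.11% in all libraries, with overlapping groups. Acta2 held 0.153% and 0.137% in the controls against 0.277% and 0.213% in the transgenics. With 2 against 2 libraries the smallest two-sided p of the exact permutation test is 0.333, which the shares of Acta1, Actc1, Acta2 and Actb each had, and no share could pass a threshold of 0.05. Adjusted over the 9 shares of both families it was 0.375.

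With reads divided by the GENCODE transcript length in place of the authors' length, which was chosen after seeing the data, the pool shifted towards Acta1. Acta1 then held a mean of 87.2% in the controls and 89.1% in the transgenics, and Actc1 2.91% and 0.603%. The mean share of Actc1 was lower in the transgenics with either length. For Actb the groups overlapped with the transcript length, at 5.39% and 5.71% in the controls against 6.1% and 5.69% in the transgenics.

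**Figure D2:**
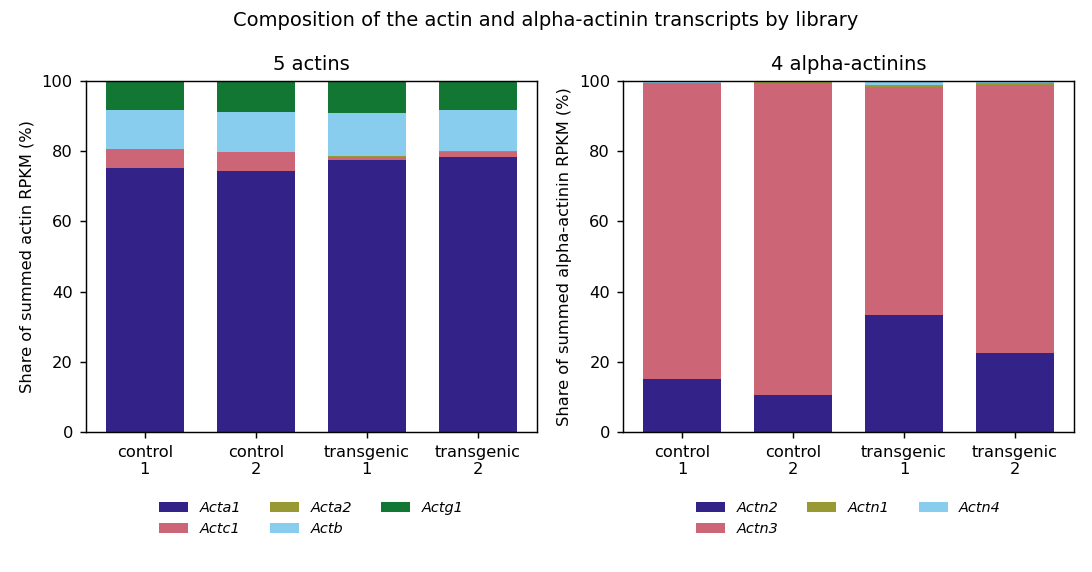
Share of summed RPKM (y axis, %) held by each of 5 actins (left) and 4 alpha-actinins (right) in each library (x axis). The Actc1 band is 5.30% to 5.41% in the controls and 0.844% to 1.42% in the transgenics, and the Actn2 band is 10.5% to 15.0% against 22.6% to 33.2%.

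Actn3, the alpha-actinin of fast fibres, was lower in transgenic muscle by RPKM and missed the threshold. It stood at 1572 and 1823 RPKM in the controls and at 705 and 931 RPKM in the transgenics. Both transgenic libraries lay well below both controls, with group means of 1698 ± 177 and 818 ± 160 RPKM (SD, n = 2) and a transgenic mean of 48.2% of the control mean. The log2 fold change was -1.06 (SE 0.23, 95% interval -1.64 to -0.49, limma adjusted p = 0.0563). It passed with limma-voom on the recovered reads (log2 fold change -1.21, adjusted p = 0.0403), where 4.08% of genes were called lower. With Thbs1 left out of the library sizes the log2 fold change was -0.86 (limma adjusted p = 0.0688). In the authors' deposited table it had a control-to-transgenic ratio of 2.35 and an adjusted p of 0.00167.

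Actn2, the alpha-actinin of all fibres, did not pass the test. It measured 281 and 214 RPKM in the controls against 360 and 275 RPKM in the transgenics, and the groups overlapped. The log2 fold change was 0.36 (95% interval -0.24 to 0.95, limma adjusted p = 0.386). With Thbs1 left out of the library sizes it was 0.56 (limma adjusted p = 0.153). It was 0.55 without transgenic library 2, which was low in slow fibre genes, or without control library 1 (limma adjusted p = 0.348 and 0.242). It was 0.16 without transgenic library 1 or control library 2 (limma adjusted p = 0.824 and 0.757).

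Shares within the alpha-actinin pool are bound to each other in the same way. Of the summed RPKM of the 4 alpha-actinins, Actn3 held 84.3% and 89.0% in the controls against 65.2% and 76.4% in the transgenics. Actn2 held 15.0% and 10.5% in the controls against 33.2% and 22.6% in the transgenics. The mean share of Actn3 differed by -15.9 percentage points and that of Actn2 by 15.1, and each had an exact permutation p of 0.333, the smallest this design allows. The RPKM ratio of Actn3 to Actn2 was 5.60 and 8.51 in the controls against 1.96 and 3.39 in the transgenics. The spread between libraries of a group was wide for this ratio, and the groups did not overlap. Over each of the 4 libraries left out in turn, the difference was -21.5 to -10.2 points for Actn3 and 9.79 to 20.5 points for Actn2.

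Fibre type genes are given beside the values of Actn3 and Actn2. Of 12 fast fibre genes 1 fell, the fast calcium pump Atp2a1, from 5904 and 5714 RPKM to 2213 and 2927 RPKM (log2 fold change -1.19, limma adjusted p = 0.0458). No gene of any list was called lower with a pseudocount of 0.1, no filter, Thbs1 left out of the library sizes or a replicate block, so this call was lost under each. The median log2 fold change of the list was -0.65, against 0.10 over all tested genes, and 11 of 12 were negative. Myh4, the fastest myosin heavy chain, had 4494 and 5045 RPKM in the controls against 2483 and 2953 in the transgenics, with a limma adjusted p of 0.0834. Of 10 slow fibre genes 0 were called, with Myl3 at 114 and 273 RPKM in the controls and at 144 and 1.73 in the transgenics. The median of the slow list was -1.13, with 3 positive and 7 negative log2 fold changes. Transgenic library 2 was low for this list, as given above. The part of fibre make-up in the Actn3 values was not tested.

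The non-muscle alpha-actinins were low. Actn1 stood at 2.42 and 2.83 RPKM in the controls and at 3.91 and 4.28 in the transgenics, from 301 to 545 reads a library. Both transgenic libraries were higher, and the log2 fold change of 0.49 (SE 0.15, 95% interval 0.12 to 0.86) did not pass (limma adjusted p = 0.104). With Thbs1 left out of the library sizes it was 0.66 and passed (limma adjusted p = 0.0447), where 14.6% of genes were called higher. Actn4 measured 10.4 and 7.80 RPKM in the controls against 13.3 and 8.42 in the transgenics, and the groups overlapped. Its log2 fold change was 0.21 (95% interval -0.44 to 0.86, limma adjusted p = 0.646), and it turned to -0.09 without transgenic library 1. The value was 0.40 with Thbs1 left out of the library sizes (limma adjusted p = 0.306).

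**Figure D3:**
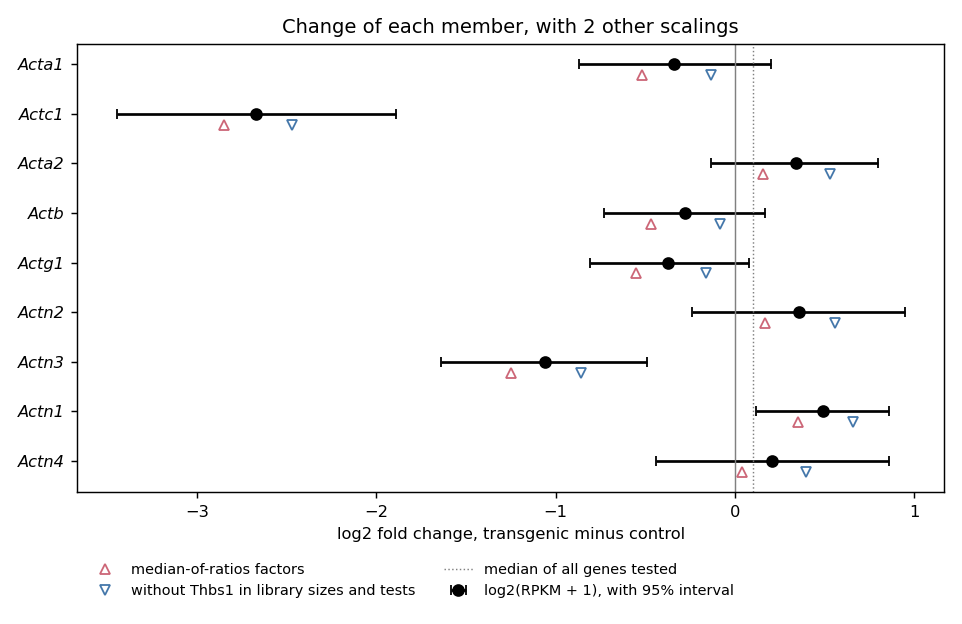
Log2 fold change of each member, transgenic minus control (x axis), as a black point with its 95% interval, with triangles for median-of-ratios factors and for Thbs1 left out of the library sizes. The intervals of Actc1, Actn3 and Actn1 do not reach 0, and Actc1 has the largest difference under each scaling.

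Scaling moved all members together. Over all tested genes the median log2 fold change was 0.10 in the test, -0.04 with median-of-ratios factors and 0.26 with Thbs1 left out of the library sizes. Relative to that median, Acta1 was at -0.44, -0.49 and -0.39 in turn, Actn3 at -1.16, -1.21 and -1.12, and Actc1 at -2.77, -2.82 and -2.73. Actb was at -0.38, -0.43 and -0.34 and Actg1 at -0.47, -0.51 and -0.42. Actn2 was at 0.25, 0.21 and 0.30 and Actn1 at 0.39, 0.39 and 0.40. Each of these scalings multiplies all values of a library by the same factor. Apart from the pseudocount, the order of the members and their place against the median could therefore not change. The distance of Acta1, Actb and Actg1 from 0 did depend on the scaling.

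Proteins that build and cap the thin filament had members on both sides. Of 17 genes for thin filament assembly and length 1 rose and 0 fell, with a median log2 fold change of -0.21. The riser was Lmod2, a leiomodin that nucleates and elongates actin filaments, from 36.7 and 46.7 RPKM in the controls to 87.8 and 84.4 RPKM in the transgenics (log2 fold change 1.04, limma adjusted p = 0.0376). Neb, the giant thin filament protein nebulin, had 116 and 110 RPKM in the controls against 68.4 and 65.2 in the transgenics (limma adjusted p = 0.0523). Capza2, a subunit of the capping protein at the barbed end, was at 153 and 134 RPKM against 73.5 and 85.0 (limma adjusted p = 0.0522). Klhl40, which stabilises nebulin and Lmod3, was at 73.7 and 57.2 RPKM against 126 and 111 (limma adjusted p = 0.0639).

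Partners of alpha-actinin at the Z-disc were mostly on the negative side. Of 18 tested, 1 rose and 0 fell, 14 had negative log2 fold changes, and the median was -0.27. Pdlim3, a PDZ and LIM domain protein that binds alpha-actinin-2, rose from 188 and 157 RPKM in the controls to 345 and 429 RPKM in the transgenics (log2 fold change 1.16, limma adjusted p = 0.0381). Its relatives Ldb3 and Pdlim5 were lower in both transgenic libraries without passing. Ldb3 was at 49.2 and 46.7 RPKM against 31.4 and 29.8 (limma adjusted p = 0.0681), and Pdlim5 at 26.6 and 20.9 RPKM against 15.0 and 12.1 (limma adjusted p = 0.08). Of 12 tested adhesion partners of the non-muscle alpha-actinins 0 were called, and the median was 0.09 over the 11 that reached 1 RPKM in both groups. Itgb1, the beta-1 integrin, stood at 30.8 and 23.4 RPKM in the controls and at 49.5 and 49.0 in the transgenics (limma adjusted p = 0.0601).

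Genes of actin turnover outside the sarcomere had list medians above that of all tested genes, which was itself positive at 0.10. Over all tested genes 6.25% were called higher. All 12 tested genes of the Arp2/3 complex, which branches actin filaments, and of the WAVE complex that activates it had positive log2 fold changes, with a median of 0.52. Of these 1 rose, the subunit Arpc3, from a mean of 20.5 ± 1.26 to 37.6 ± 1.70 RPKM (SD, n = 2, limma adjusted p = 0.0383). Of 14 monomer binding and turnover genes 1 rose and 12 were positive, with a median of 0.46. Tmsb10, a thymosin that sequesters actin monomers, measured 5.62 and 3.96 RPKM in the controls against 14.8 and 30.6 in the transgenics (limma adjusted p = 0.0414). The 15 tested genes of actin folding and modification include the chaperonin that folds newly made actin. They had 0 calls, with 12 positive and 3 negative, and a median of 0.10, equal to that of all tested genes.

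**Figure D4:**
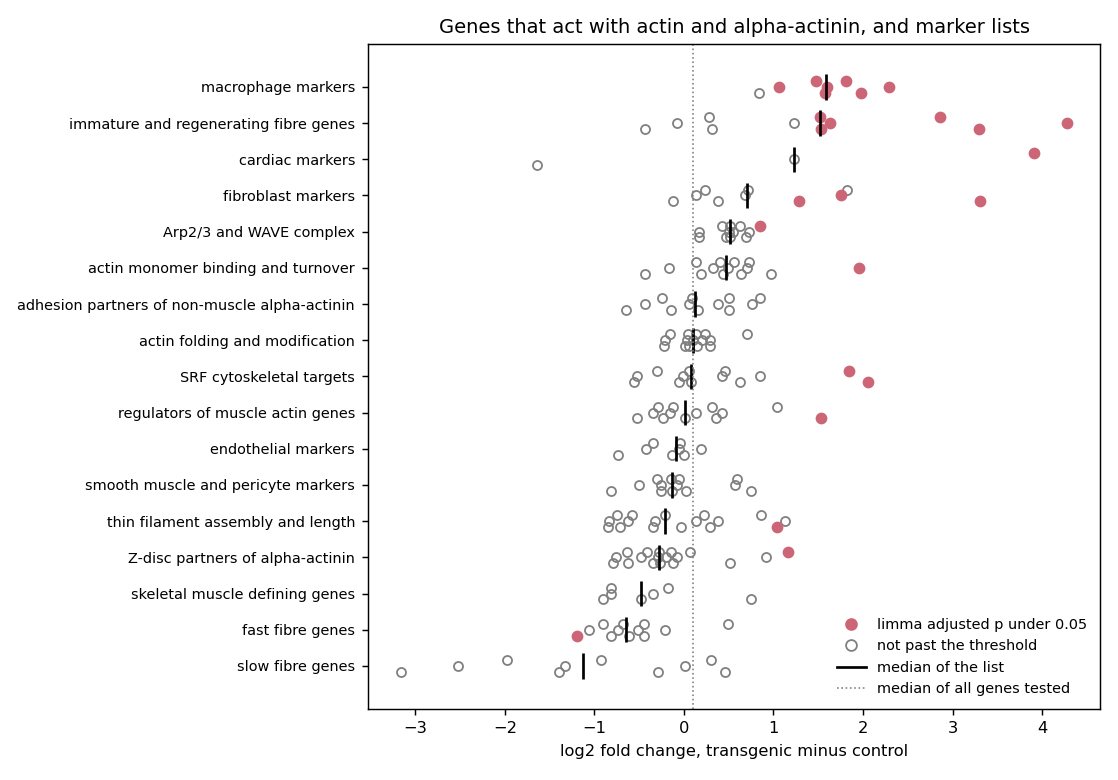
Log2 fold change, transgenic minus control (x axis), of each tested gene in lists of actin and alpha-actinin partners and of cell type markers (y axis), with filled points for genes at a limma adjusted p under 0.05 and a bar at the list median. Arp2/3 and WAVE genes all lie above 0, and fast fibre genes lie below it except for 1 gene.

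Of 13 tested regulators of muscle actin genes 11 reached 1 RPKM in both groups, and of these 1 rose and 0 fell, with a median of -0.12. Srf, the factor that binds the CArG box, had 11.7 and 10.9 RPKM in the controls against 7.72 and 7.47 in the transgenics, lower in both libraries without passing (log2 fold change -0.52, limma adjusted p = 0.0895). Myog, the myogenic factor myogenin, rose from 4.30 and 3.30 to 9.87 and 16.4 RPKM (limma adjusted p = 0.0373). Of 13 tested cytoskeletal and early targets of SRF 2 rose and 0 fell, with 8 positive and 5 negative log2 fold changes. The median was 0.08, against 0.10 over all tested genes. The risers were the immediate early genes Egr1 and Fos, with log2 fold changes of 1.84 and 2.06 (limma adjusted p = 0.0127 and 0.027). Acta1, Actc1 and Actg1, the members with an exact CArG box in the promoter, had the log2 fold changes of -0.34, -2.67 and -0.37 given above. Acta2, with 2 boxes of 1 mismatch, had 0.34, and Actb and Actn3 had no promoter entry.

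Actc1 is made in immature fibres and in the heart, and genes of both are given beside it. Of 11 tested genes of immature and regenerating fibres, Tnnt2, Ncam1 and Chrng passed the filter through the transgenic libraries alone. Of the other 8, 4 rose and 0 fell, 6 had positive log2 fold changes, and the median was 0.92. Myl4, a myosin light chain of embryonic muscle and atrium, rose from 2.11 and 3.44 RPKM to 52.2 and 96.7 RPKM (log2 fold change 4.28, limma adjusted p = 0.00863). Chrna1, an acetylcholine receptor subunit, rose from 4.50 and 4.47 to 33.5 and 45.1 RPKM (limma adjusted p = 0.0078). The perinatal myosin Myh8 stood at 419 and 501 RPKM in the controls and at 320 and 359 in the transgenics, and the embryonic myosin Myh3 at 29.1 and 40.0 against 38.1 and 45.8. Both were chosen after their values were seen. Of the cardiac markers 3 were tested, and 2 reached 1 RPKM in both groups. Of these Sln, the calcium pump inhibitor sarcolipin, rose (log2 fold change 3.91, limma adjusted p = 0.0188). Myh6, the cardiac alpha myosin heavy chain, had 10.6 and 14.2 RPKM in the controls against 11.7 and 0.436 in the transgenics (log2 fold change -1.64, limma adjusted p = 0.346). Tnnt2, the cardiac troponin T set aside above, had 0.184 and 0.0922 RPKM in the controls against 1.10 and 2.38 in the transgenics. The defining heart genes Nppa, Nppb, Myl7, Ryr2 and Mybpc3 were below 0.1 RPKM in all 4 libraries.

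Markers of other cells are given beside these values. Of 8 tested macrophage markers Cd68 passed the filter through the transgenic libraries alone, and of the other 7, 6 rose and 0 fell. The summed level of the macrophage list was 48.2 to 78.9 RPKM in the controls and 228 to 253 RPKM in the transgenics. Of 10 fibroblast markers 3 rose and 0 fell, with sums of 282 to 582 RPKM against 699 to 704. Of 8 endothelial markers 0 were called, with 1 positive and 7 negative log2 fold changes and a median of -0.09. Macrophages and fibroblasts carry Actb, Actg1 and Actn1, and the part of these cells in the values of those members and of the Arp2/3 genes was not tested.

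The genes with the profiles most like those of the members were found among 2868 genes with a mean of at least 10 RPKM, by the root mean square distance of centred log2(RPKM + 1) over the 4 libraries. For Actc1 the nearest were 2310065F04Rik, Mettl21e, 2310015B20Rik and Mstn, at distances of 0.199, 0.431, 0.486 and 0.499. Mstn, which encodes the growth inhibitor myostatin, measured 26.3 and 31.0 RPKM in the controls against 6.35 and 4.95 in the transgenics. For Acta1 the nearest was Capzb, a capping protein subunit, at a distance of 0.0207, with 26.0 and 22.9 RPKM against 18.3 and 20.5. Nudt19, Auh and Ppp2r3a followed at 0.0267, 0.0366 and 0.0414. For Actn3 the nearest were Mylk2, the skeletal myosin light chain kinase, Slc37a4, Prkab2 and Pygm, at 0.0519, 0.0696, 0.0941 and 0.0958. Mylk2 had 169 and 186 RPKM in the controls against 73.8 and 105 in the transgenics. The distances to Actc1 were larger than those to Acta1 and Actn3. Distances are not scaled to the size of the change, which was largest for Actc1, so they cannot be compared between members. With 4 libraries such distances describe these samples only.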

How the data were processed

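The mouse build mm10 and the tools TopHat, bcl2fastq and edgeR are named, without roles, in the submitters' processing notes. The authors deposited per-library values in RPKM, base means, which are signal values (reads over a size factor), a ratio of control to transgenic base means, and p-values with adjusted p-values. The tool that gave these is not stated in the sources used here. RPKM and base means together gave reads for each gene, whole within 1e-06 for 100% of values, and from them the depth and the gene lengths. On the log2(RPKM + 1) scale, control and transgenic libraries were compared two-sided with limma (3.58.1, R 4.3.3; trended prior variance, no covariates), for genes reaching 1 RPKM in 2 or more libraries. Adjustment was by Benjamini-Hochberg over all 10015 genes, and calls were made under 0.05. Log2 fold changes are transgenic minus control, on a scale that understates the change of low genes. Groups and replicate numbers come from the sample titles. The fit was run on simulated reads drawn from the control means. These lack the Thbs1 reads of the transgenics, so the simulation does not cover the shift that those reads bring. Shares were compared with an exact permutation test. Alternatives were another pseudocount, no filter, other scalings, limma-voom with trimmed-mean factors, a replicate block and each library left out. Members and the 17 lists were chosen with earlier results of these data known. Genes named are the members, Actg2, Thbs1, up to 4 per list with the smallest p and the 4 nearest profiles of Acta1, Actc1 and Actn3. Myh11, Myh3 and Myh8 and the heart genes at under 0.1 RPKM are named outside this rule, after their values were seen. Coordinates and transcripts are from GENCODE M21 (GRCm38, called mm10), and promoters from RefSeq. Symbols turned into dates were restored for 27 genes. Python 3.11.15, numpy 2.4.6, pandas 2.3.3, Biopython 1.88 and matplotlib 3.10.9 were used.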

Additional observations from a re-analysis of the deposited data

How the results depend on the processing

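The 9 members were refitted under 10 settings. Direction and side of the threshold were kept in 84 refits, while 3 lost a call, 2 gained one and 1 turned. Actc1 lost its call with no filter (log2 fold change -2.67, limma adjusted p = 0.0619), and over the libraries left out it was -3.09 to -2.25. Actn3 gained a call with limma-voom (-1.21), as did Actn1 without Thbs1 in library sizes (0.66). Left-out libraries gave -0.09 to 0.51 for Actn4 and -0.173 to 0.512 percentage points for the share of Actg1, each turning without transgenic library 1. The cause was not tested. Genes called numbered 748, or 626 higher and 122 lower. They were 146 (135 and 11) with no filter, 1561 (1458 higher) without Thbs1, and 1705 at an adjusted p under 0.1. Those lower were 64 with the replicate block, 249 with median-of-ratios factors and 409 by limma-voom. Leaving out a library gave 1 to 651 (1 to 593 higher, 0 to 104 lower), the lowest without control library 2. Distinct list genes called higher were 23 in the test, 8 with no filter and 42 without Thbs1, and 0 to 21 over libraries left out. Those lower were 1 in the test (Atp2a1), 0 with a pseudocount of 0.1, no filter, Thbs1 left out or the block, 15 by limma-voom and 8 with median-of-ratios factors, and 0 to 9 over libraries left out. The 23 list genes called higher in the test included Ncam1, Chrng and Cd68, which passed the filter through the transgenic libraries alone. Unlike the list counts in Results, these counts were not limited to genes reaching 1 RPKM in both groups. The deviations of libraries with the same number had a correlation of 0.0742. With 2 libraries in a group this cannot show whether libraries of the same number were prepared together. The block changed no call of a member. Each member had 301 or more reads in each library.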
